A study of Mus musculus with 6 samples.

Results

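The genes described here are the 24 selenoprotein genes of the mouse and 8 genes of the machinery that makes selenocysteine and inserts it into proteins. They were chosen by symbol, and all 32 were found among the 21899 genes listed. RNA from 6 tumor samples was sequenced, in 3 groups named Laser, PC-La and SePC-La, with 2 samples in each. All tumors grew from LLC-luc cells, a luciferase-tagged line of Lewis lung carcinoma, placed under the skin of male C57BL/6 mice, and all were irradiated with a 620 nm laser for 10 min. The Laser group had irradiation without a photosensitizer, the PC-La group had phycocyanin, a light-absorbing pigment protein of the cyanobacterium Spirulina, injected 4 h before the laser, and the SePC-La group had phycocyanin from selenium-enriched Spirulina at the same time point, with injections repeated every 5 days. The wavelength, interval and duration are those of the labels, which were followed. The study's text gives another wavelength and a shorter interval, and a passage of it describes triplicates. No tumor without irradiation was analysed here, so every difference below is between irradiated groups. The comparison of SePC-La with PC-La sets the selenium-enriched pigment against pigment without enrichment. The study also reported less chromium, manganese and zinc in the enriched pigment, so selenium cannot be told apart from these here. No label says whether the 2 samples of a group came from separate animals, so p-values measure only the spread between these samples, which may be technical.

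Selenoproteins carry selenocysteine, a selenium analogue of cysteine, usually at the catalytic site of enzymes that remove peroxides or reduce disulfides. Selenocysteine is encoded by UGA, a codon that otherwise ends translation, and it is inserted only where a hairpin in the same mRNA recruits SECIS-binding protein, which works with a dedicated elongation factor and tRNA. Some selenoprotein mRNAs are known to be degraded when selenium is short, because the unread UGA is then treated as a premature stop when it lies far enough upstream of the last exon junction. In tumors the family is best known for GPX4, which protects membranes from lipid peroxidation, and for TXNRD1, which keeps thioredoxin reduced.

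The selenocysteine codon and its surroundings are shown for the selenoproteins on which the results turn, with 12 coding bases on each side, or fewer where the reading frame ends. Capitals mark the TGA that is read as selenocysteine. The sequences and positions are those of GENCODE M21 on GRCm38, at chr9:108339451-108339453 for Gpx1, chr10:80054737-80054739 for Gpx4, chr10:82896037-82896039 for Txnrd1, chr11:3516273-3516275 for Selenom, chr2:84670381-84670383 on the minus strand for Selenoh, chr5:30266964-30266966 for Selenoi, chr15:3274848-3274850 for Selenop and chr7:127273731-127273733 on the minus strand for Sephs2. All of these lie in coding exons, and genes without a stated strand are on the plus strand.
Gpx1: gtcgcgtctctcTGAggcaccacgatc
Gpx4: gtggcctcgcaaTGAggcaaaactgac
Txnrd1: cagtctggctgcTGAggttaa
Selenom: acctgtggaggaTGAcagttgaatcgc
Selenoh: cattgtacgagcTGAcgcgtgtacggc
Selenoi: ccaaactcagatTGActaggaatggaa
Selenop: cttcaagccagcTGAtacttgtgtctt
Sephs2: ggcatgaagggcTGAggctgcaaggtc
Sephs1: gaactgaaaggcACAggctgcaaagtg
The last line is the corresponding stretch of Sephs1, a paralog of Sephs2 that carries no selenocysteine and was counted with the machinery. The proteins shared 75.4% of 386 aligned residues, and the capitals in Sephs1 mark codon 29, which aligns with the selenocysteine of Sephs2 at codon 63. In Txnrd1 the selenocysteine is the last residue but 1, at codon 498 of 499, directly after a cysteine codon.

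The annotation carried a selenocysteine for 24 of 24 selenoproteins. The codon stood alone in 22 of them, Dio2 had 2 and Selenop, the plasma selenium carrier, had 10. In 6 genes (Txnrd1, Txnrd2, Txnrd3, Selenok, Selenos and Selenoo) the codon lay within 3 codons of the end. In 14 genes, among them Gpx1, Gpx4, Selenoh, Selenom and Selenop, it lay more than 50 nt upstream of the last exon junction, and in the other 10, among them Txnrd1, Selenoi and the single-exon Sephs2, it did not. Txnrd2 was also counted in the 14, with its codon 83 nt upstream of that junction and only 1 codon before the ordinary stop. The base after TGA was G in 12 genes, C in 6, A in 4 and T in 2.

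**Figure D1:**
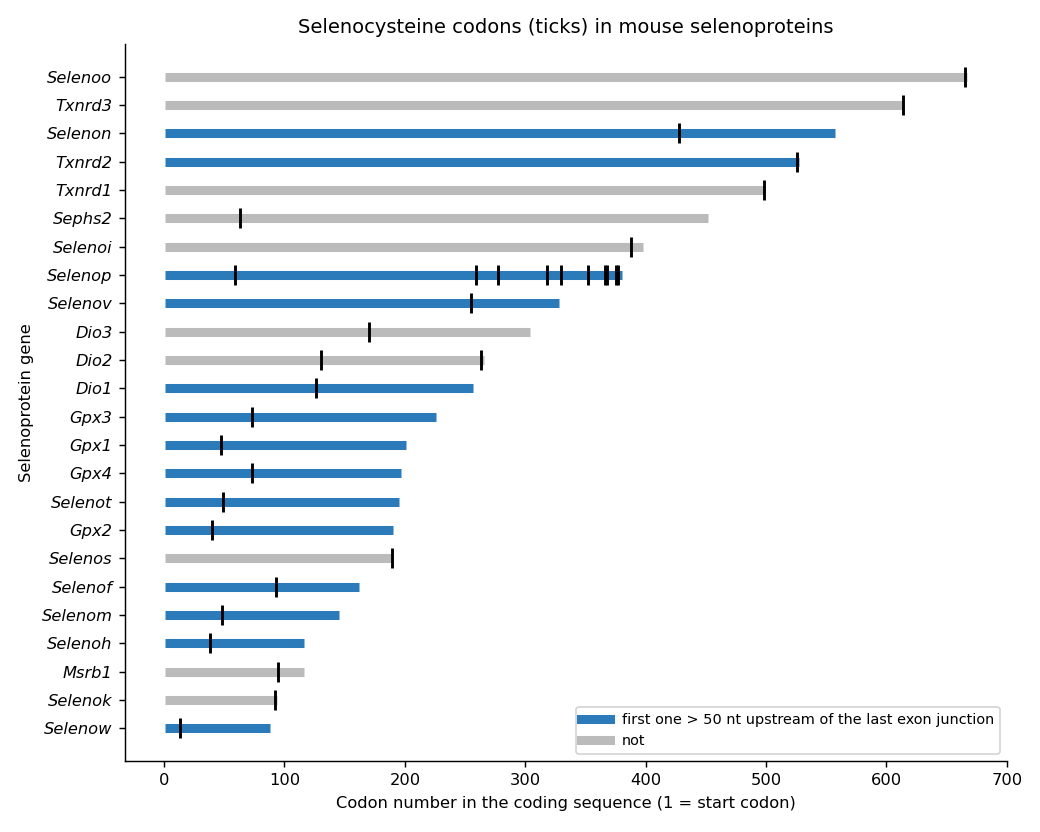
Each bar is the coding sequence of a mouse selenoprotein in codons (x axis), and each tick is a selenocysteine codon. Blue bars are the 14 genes whose first such codon lies more than 50 nt upstream of the last exon junction, grey bars the other 10, and the ticks of Txnrd1, Txnrd2, Txnrd3, Selenok, Selenos and Selenoo sit at the right end.

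Levels are given in FPKM, fragments scaled by exon length and by the size of the library. The length matched the merged annotated exons of a gene, which can exceed the mRNA, so the order of genes by level depends on it. The deposited values corresponded to totals between 14447794 and 17649492 reads per sample. The Pearson correlation of log2(FPKM + 1) between the 2 samples of a group was 0.946 for Laser, 0.992 for PC-La and 0.972 for SePC-La. Fold changes are differences of log2(FPKM + 1), which understate the change of low genes, from a limma fit of the 10853 genes whose mean over the samples reached 1 FPKM. No gene had a Benjamini-Hochberg adjusted p under 0.05 in this fit (0 genes, 0% of those tested, in each comparison), while 627, 1318 and 2637 genes had an unadjusted p under 0.05 for PC-La against Laser, SePC-La against Laser and SePC-La against PC-La. With the Laser samples left out, an adjusted p under 0.05 was found for 637 genes in SePC-La against PC-La. The tissue was labelled as lung cancer. The keratins Krt8 and Krt18 were at 78.1 to 113.9 and 110.0 to 165.9 FPKM, whereas the lung epithelial factor Nkx2-1 was listed at 0 in all samples and Epcam was at most 0.129 FPKM.

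Of the 32 members, 27 passed the filter, namely 19 selenoproteins and 8 machinery genes. The intestinal peroxidase Gpx2, the thyroid hormone deiodinase Dio1 and Selenov, best known from testis, were listed at 0 in all 6 samples. Dio3, which inactivates thyroid hormone, had 0 to 3 reads. Dio2, which activates it, had 2 to 114 reads, which was 0.481 and 0.234 FPKM for Laser, 1.25 and 0.483 for PC-La, and 0.0238 and 0.217 for SePC-La. Without the filter, Dio2 was lower in SePC-La than in PC-La by a log2 difference of -0.71 (SE 0.23), with an adjusted p of 0.224 by limma.

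Selenoproteins together made up 876.4 to 1104 FPKM in a sample, which was 0.288% to 0.355% of the summed FPKM of all genes. Both ends of this range were SePC-La samples. Gpx1, the cytosolic glutathione peroxidase, was the highest selenoprotein by FPKM in all 6 samples, at 201.4 to 246.2, or 21.8% to 23.9% of the selenoprotein sum. In reads, Selenof exceeded Gpx1 in every sample (5407 to 9106 against 4192 to 6195), over merged exons of 5819 against 1441 bases. Gpx4 was at 115.1 to 181.5 FPKM, below Gpx1 in every sample. Selenow, a small thioredoxin-fold protein of muscle and other tissues, overlapped Gpx4 with 72.59 to 177.9 FPKM. It was above Gpx4 in Laser replicate 1, both PC-La samples and SePC-La replicate 2. The 3 highest genes held 50.5% to 52.7% of the sum in every sample, with Selenof in the third place in Laser replicate 2 in which Selenow was lowest. The next levels were those of Selenof (64.31 to 88.66 FPKM) and Selenoh (57.37 to 88.06), whose ranges overlapped almost fully.

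No machinery gene exceeded 19.08 FPKM in any sample. Sephs1 (14.63 to 19.08 FPKM) and Trnau1ap, which binds the selenocysteine tRNA (13.03 to 16.51), had the highest means over the 6 samples, followed by Secisbp2l, a relative of the SECIS-binding protein (10.02 to 15.03), and the ranges of these 3 genes overlapped. Several selenoproteins were lower than these, such as Txnrd2, Selenoi and Selenoo. Secisbp2, the SECIS-binding protein itself, was at 5.892 to 8.045 FPKM, below Secisbp2l in every sample. The elongation factor Eefsec (3.722 to 6.176), the selenocysteine synthase Sepsecs (3.872 to 4.592) and the selenocysteine lyase Scly (1.902 to 4.839) overlapped one another. The kinase Pstk, which phosphorylates seryl-tRNA ahead of Sepsecs, was the lowest, at 1.146 to 1.706 FPKM and 131 to 231 reads.

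The spread over the 6 samples differed widely between members. The highest value was 1.17 times the lowest for Selenon, an endoplasmic reticulum protein linked to calcium handling, 1.19 times for Sepsecs and 1.22 times for Gpx1. It was 6.28 times for the extracellular peroxidase Gpx3, 4.67 times for Selenop, 2.54 times for Scly and 2.45 times for Selenow. For Gpx3 and Selenow the samples lay far apart within both Laser and SePC-La, and for Selenop within SePC-La.

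**Figure D2:**
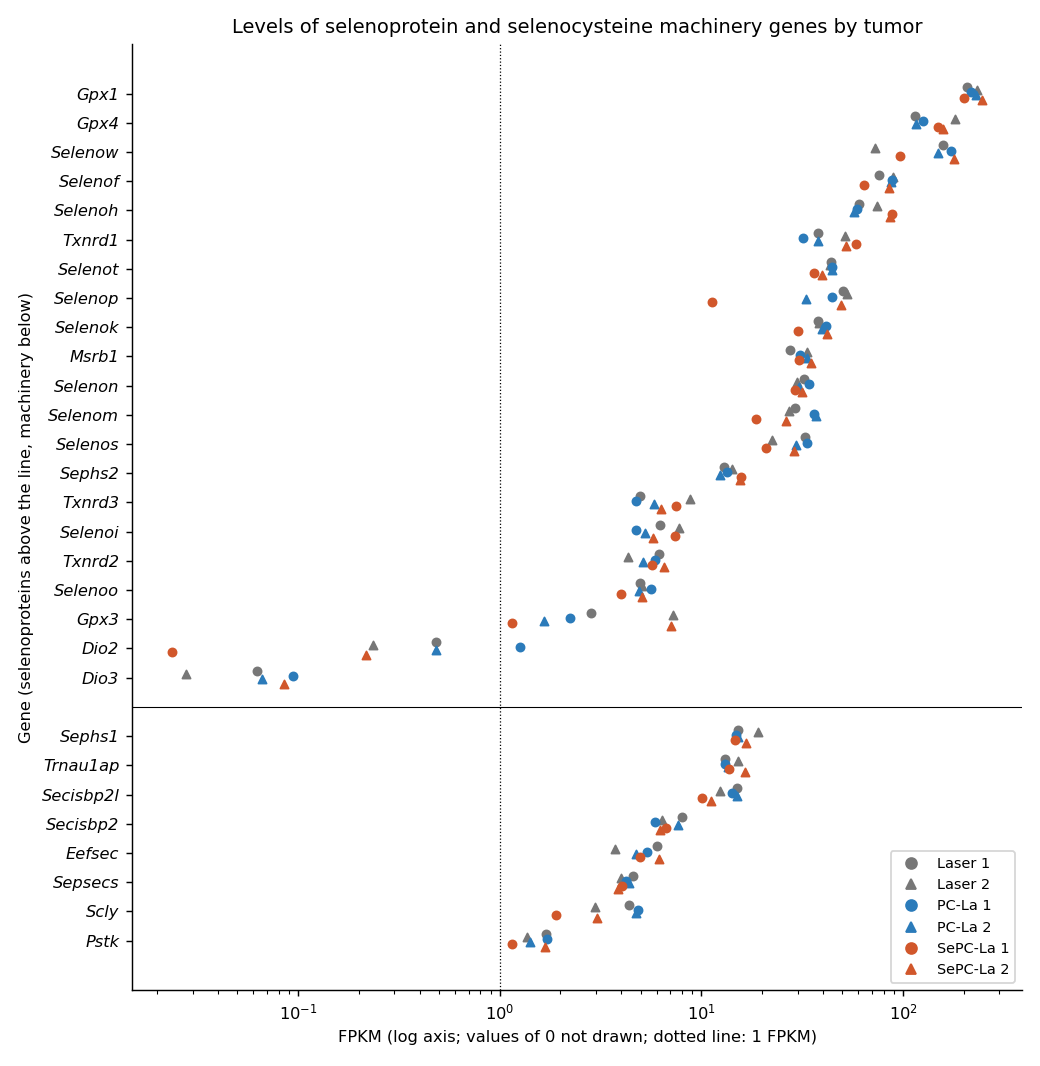
Each point is the FPKM of a gene in a sample (log axis), with circles for replicate 1 and triangles for replicate 2, and selenoproteins above the line and machinery below it. Gpx1 sits at the top with all 6 samples between 201.4 and 246.2 FPKM, while Selenop of SePC-La replicate 1 lies apart from the other samples at 11.3 FPKM.

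PC-La was compared with Laser to set phycocyanin with light against light without it. Selenoi, an ethanolamine phosphotransferase of membrane lipid synthesis, was the only member with an unadjusted p under 0.05. It was at 6.238 and 7.777 FPKM in the Laser samples and 4.711 and 5.225 in the PC-La samples, so that both PC-La samples were below both Laser samples. The log2 difference was -0.42 (SE 0.17, 95% CI -0.83 to -0.01), with a limma p of 0.046 and an adjusted p of 0.753. The unadjusted call was lost with median-ratio scaling, with no filter, without Laser replicate 2 and without either PC-La sample, where the difference ranged from -0.56 to -0.28 over the samples left out.

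Among all genes tested, 3.38% had higher and 2.4% lower levels in PC-La at an unadjusted p under 0.05, against 0 and 1 of the 27 members. With an absolute log2 fold change over 1 in addition, the criterion the study used to screen genes, the share was 1.29% of all genes and 0 of 27 members. The 2 samples of each group did not overlap in 4 members that were higher and 4 that were lower in PC-La, against 20.4% and 21.6% of all genes. The 4 higher ones were Selenok, Selenom, Selenot and Scly, and the 4 lower ones Gpx3, Selenoh, Selenoi and Selenop. The median log2 difference was 0.03 over the 19 selenoproteins and 0.01 over the 8 machinery genes, beside -0.00 over all genes. The median absolute difference over the 27 members was 0.09, beside 0.15 over all genes.

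By role, Gpx1 was nearly equal, with a log2 difference of 0.02 (SE 0.15, 95% CI -0.33 to 0.38). Gpx4 was at 115.1 and 181.5 FPKM in the Laser samples against 124.9 and 116.1 in the PC-La samples, and these values overlapped. Its difference was -0.26 (SE 0.22, 95% CI -0.78 to 0.26), and it ranged from -0.59 to 0.07 over the samples left out. The cytosolic reductase Txnrd1 had a difference of -0.34 (SE 0.18) with overlapping groups, the mitochondrial Txnrd2 of 0.07 (SE 0.18) and Txnrd3, the form known from testis, of -0.30 (SE 0.25). All 6 tested selenoproteins of the endoplasmic reticulum (Selenof, Selenok, Selenom, Selenon, Selenos and Selenot) had differences above 0, with a median of 0.09 and the highest in Selenom at 0.37 (SE 0.17, adjusted p = 0.753 by limma). None of these 6 passed at an unadjusted p under 0.05, and 5418 of the 10853 genes tested were also above 0. With either Laser sample or PC-La replicate 1 left out, 5 of the 6 were above 0. Laser replicate 1 weighed on this comparison. Without it, 6 members (Gpx4, Selenoh, Selenoi, Selenow, Txnrd1 and Txnrd3) had an unadjusted p under 0.05, with Laser replicate 2 then assumed to vary like the other groups, and so did 2700 of the 10853 genes tested (24.9%).

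SePC-La was compared with Laser to set the selenium-enriched pigment with light against light alone. Selenoh, a nucleolar redox protein whose mRNA is known to fall readily when selenium is short, was the only member with an unadjusted p under 0.05. It was at 60.41 and 74.24 FPKM in the Laser samples against 88.06 and 86.30 in the SePC-La samples, which did not overlap. The log2 difference was 0.38 (SE 0.14, 95% CI 0.04 to 0.71), with a limma p of 0.0322 and an adjusted p of 0.387. The unadjusted call was lost with quantile normalization, with only the 4 samples compared, and when either SePC-La sample, either PC-La sample or Laser replicate 1 was left out. Over the samples left out the difference ranged from 0.23 to 0.52. Without Laser replicate 2 the members with such a p were 5 (Gpx4, Scly, Secisbp2l, Selenoh and Txnrd1), and without SePC-La replicate 2 they were 4 (Gpx3, Scly, Selenom and Selenop), beside 19.5% and 11.7% of all genes in these fits.

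At an unadjusted p under 0.05, 4.9% of all genes tested were higher and 7.24% lower in SePC-La than in Laser, against 1 and 0 of the 27 members. The criterion with an absolute log2 fold change over 1 took 0.682% of all genes and 0 members. Groups did not overlap in 3 members that were higher (Selenoh, Txnrd1 and Sephs2) and 4 that were lower (Selenom, Selenop, Selenot and Secisbp2l), against 15% and 25.6% of all genes. The median log2 difference was -0.03 over the selenoproteins and -0.11 over the machinery, beside -0.06 over all genes. Without SePC-La replicate 1 the selenoprotein median was 0.12.

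Gpx1 was again close to equal between SePC-La and Laser, at a log2 difference of 0.02 (SE 0.15, 95% CI -0.34 to 0.38), and Gpx4 was at 0.08 (SE 0.22, 95% CI -0.44 to 0.61), which became -0.05 with quantile normalization and ranged from -0.24 to 0.41 over the samples left out. The 4 mRNAs known to yield first in selenium shortage, Gpx1, Selenow, Selenoh and the methionine sulfoxide reductase Msrb1, all had differences above 0, with a median of 0.19, and only Selenoh had an unadjusted p under 0.05. Of all genes 4368 of 10853 were above 0. With quantile normalization 3 of these 4 mRNAs were above 0, and 2 of the 4 without Laser replicate 1 (median 0.10) or without SePC-La replicate 2 (median -0.06). Selenow spanned 72.59 to 158.5 FPKM in Laser and 96.67 to 177.9 in SePC-La, so its difference of 0.29 (SE 0.44) was smaller than its spread. All 6 endoplasmic reticulum selenoproteins were below 0, with a median of -0.14, as were 6485 of the 10853 genes, and none of the 6 passed at an unadjusted p under 0.05. With median-ratio scaling 5 of the 6 were below 0, and without Laser replicate 1 it was 4 of the 6. Without SePC-La replicate 1 it was 2 of the 6, with a median of 0.04.

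SePC-La and PC-La were compared to set the selenium-enriched pigment against the plain one. In these data 5 members had an unadjusted p under 0.05 and none an adjusted p under 0.05. Selenoh and Txnrd1 were higher in SePC-La. Selenom, Scly and Secisbp2l were lower. For all genes tested these shares were 9.91% higher and 14.4% lower, so that 2 and 3 of 27 members lay near the background. The count of 5 became 2 without PC-La replicate 1, 3 without SePC-La replicate 1 and 8 without SePC-La replicate 2, beside 8.07%, 11.5% and 23.5% of all genes, and Selenoh and Selenom were in each of these.

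Selenoh was at 58.84 and 57.37 FPKM in PC-La against 88.06 and 86.30 in SePC-La. The samples within each group were close and the groups lay far apart, at 58.1 ± 1.04 and 87.2 ± 1.25 FPKM (SD, n = 2). The log2 difference was 0.58 (SE 0.14, 95% CI 0.25 to 0.91), with a limma p of 0.00496 and an adjusted p of 0.126. The unadjusted call was kept in 17 of 17 alternative settings, with differences from 0.46 to 0.68. The adjusted p ranged from 0.044 to 0.582 over them, and it was under 0.05 when the Laser samples were left out together (0.0442) or singly.

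Txnrd1, whose codon for selenocysteine at the end of the reading frame is printed above, was at 32.07 and 37.73 FPKM in PC-La against 58.37 and 51.85 in SePC-La. Its 2 Laser samples, at 37.72 and 51.73 FPKM, reached from the PC-La to the SePC-La levels. The log2 difference between SePC-La and PC-La was 0.65 (SE 0.18, 95% CI 0.20 to 1.09), with a limma p of 0.0111 and an adjusted p of 0.138. The unadjusted call was lost without PC-La replicate 1 and without SePC-La replicate 1, with differences from 0.53 to 0.76 over the samples left out. The related Txnrd3 and Txnrd2 had differences of 0.34 (SE 0.25) and 0.13 (SE 0.18), and all 3 reductases stayed above 0 with median-ratio scaling and quantile normalization.

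Selenom, a thioredoxin-fold protein of the endoplasmic reticulum, was at 36.16 and 37.18 FPKM in PC-La against 18.65 and 26.18 in SePC-La. Both SePC-La samples were below every PC-La and Laser sample, and the Laser samples, at 29.08 and 27.09 FPKM, lay between the other groups. The log2 difference between SePC-La and PC-La was -0.70 (SE 0.17, 95% CI -1.12 to -0.29), with a limma p of 0.00557 and an adjusted p of 0.126. The unadjusted call was kept in 17 of 17 alternative settings, with differences from -0.94 to -0.47.

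Scly, which frees selenium from selenocysteine for reuse, was at 4.839 and 4.730 FPKM in PC-La against 1.902 and 3.022 in SePC-La. The Laser samples, at 4.363 and 2.977 FPKM, spanned most of the gap between these groups. The log2 difference between SePC-La and PC-La was -0.76 (SE 0.22, 95% CI -1.29 to -0.23), with a limma p of 0.0124 and an adjusted p of 0.139, on 125 to 344 reads. Secisbp2l was at 14.18 and 14.99 FPKM in PC-La against 10.02 and 11.20 in SePC-La, below both other groups in both samples. Its log2 difference was -0.43 (SE 0.14, 95% CI -0.77 to -0.08), with a limma p of 0.0225 and an adjusted p of 0.16. The unadjusted calls of Scly and Secisbp2l were lost without PC-La replicate 1 and without SePC-La replicate 1, and that of Secisbp2l also without PC-La replicate 2.

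**Figure D3:**
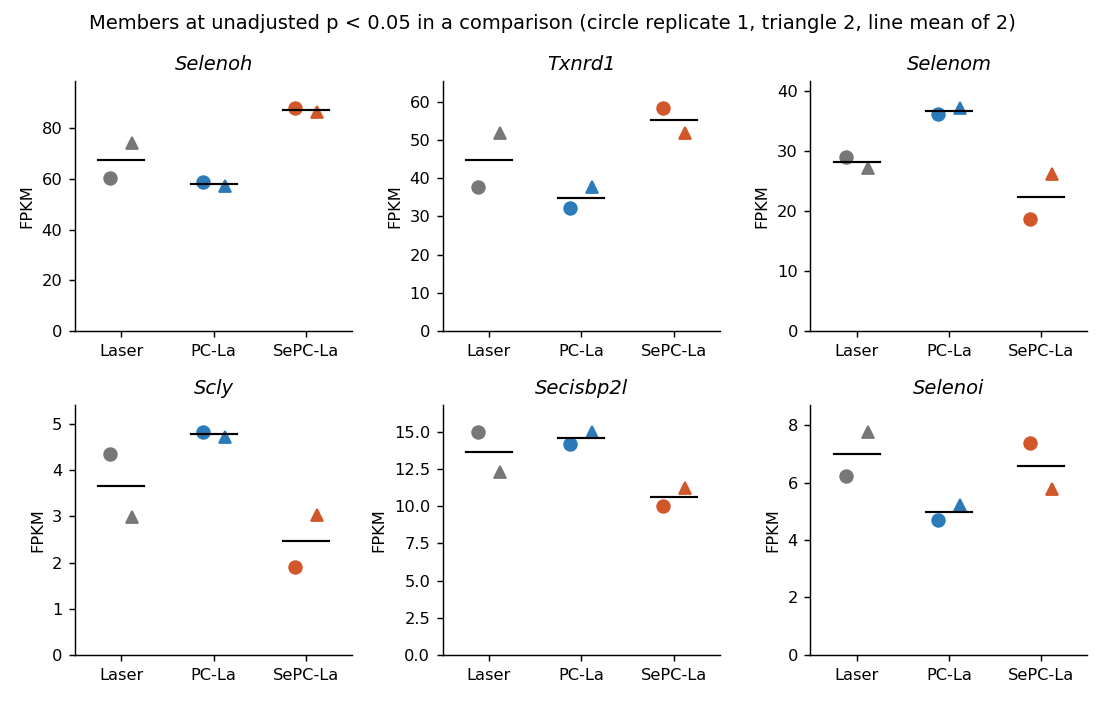
FPKM (y axis, from 0) of the 6 members with an unadjusted p under 0.05 in a comparison, by group, with circles for replicate 1, triangles for replicate 2 and a line at the mean of 2. Selenoh is at 86.30 and 88.06 FPKM in SePC-La against at most 74.24 elsewhere, and Selenom is at most 26.18 FPKM in SePC-La against at least 27.09 elsewhere.

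The criterion with an absolute log2 fold change over 1 took 2.98% of all genes in SePC-La against PC-La and 0 of 27 members. Groups did not overlap in 7 members that were higher and 7 that were lower in SePC-La, against 26% and 39.5% of all genes. The higher ones were Gpx4, Txnrd1, Txnrd3, Sephs2, Selenoh, Selenoi and Trnau1ap, and the lower ones Selenof, Selenom, Selenos, Selenot, Sepsecs, Secisbp2l and Scly. The median log2 difference was -0.00 over the selenoproteins and -0.07 over the machinery, beside -0.07 over all genes, and the median absolute difference over the members was 0.23 beside 0.25. The selenoprotein median was 0.15 without SePC-La replicate 1 and -0.15 without SePC-La replicate 2.

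Of the 4 mRNAs known to yield first in selenium shortage, 2 were above and 2 below 0 in this comparison, with a median of 0.01, which was 0.14 without SePC-La replicate 1 and -0.11 without SePC-La replicate 2. Gpx1 did not differ detectably, with a log2 difference of -0.00 (SE 0.15, 95% CI -0.36 to 0.35). Gpx4 was at 124.9 and 116.1 FPKM in PC-La against 149.3 and 157.1 in SePC-La. The groups were apart, and its difference was 0.34 (SE 0.22, 95% CI -0.18 to 0.87) with an adjusted p of 0.349 by limma. Over the samples left out the difference of Gpx4 ranged from 0.29 to 0.40. In a limma fit of the 4 samples alone Gpx4 had an unadjusted p under 0.05, as did 33.4% of all genes. Sephs2, the selenoprotein that supplies selenophosphate for making selenocysteine, was at 13.40 and 12.43 FPKM in PC-La against 15.77 and 15.60 in SePC-La. Its difference was 0.26 (SE 0.12, 95% CI -0.03 to 0.55) with an adjusted p of 0.234, while its paralog Sephs1 was at 0.05 (SE 0.15).

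All 6 endoplasmic reticulum selenoproteins had log2 differences below 0 between SePC-La and PC-La, with a median of -0.23, from -0.70 in Selenom to -0.09 in Selenon. Selenom was the only member of the 6 with an unadjusted p under 0.05, and 6350 of all 10853 genes were also below 0. Selenos, which takes part in the removal of misfolded proteins, had a difference of -0.34 (SE 0.23), Selenof, a partner of the glycoprotein folding sensor, -0.23 (SE 0.17), Selenot, a redox protein of hormone-secreting cells, -0.23 (SE 0.11), and Selenok, needed for palmitoylation of calcium channels, -0.18 (SE 0.17). With median-ratio scaling, and again without SePC-La replicate 1, 5 of the 6 were below 0, with medians of -0.12 and -0.08.

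By position of the codon, the selenoproteins had overlapping ranges. The 11 tested genes with the codon more than 50 nt upstream of the last junction had a median log2 difference of -0.09 between SePC-La and PC-La, from -0.70 in Selenom to 0.58 in Selenoh. The other 8 had a median of 0.14, from -0.34 in Selenos to 0.65 in Txnrd1. Against Laser the medians of the same 2 sets in SePC-La were -0.03 and -0.02. These medians were not tested.

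The remaining members showed smaller or more scattered values in SePC-La against PC-La. Msrb1 (0.02, SE 0.14), Secisbp2 (-0.05, SE 0.17), Sepsecs (-0.10, SE 0.13), Pstk (-0.10, SE 0.20) and Eefsec (0.12, SE 0.22) had log2 differences no larger than their standard errors. Trnau1ap was at 0.16 (SE 0.15), Selenoo, a mitochondrial pseudokinase that transfers AMP, at -0.18 (SE 0.15), Selenow at -0.29 (SE 0.44) and Gpx3 at 0.51 (SE 0.69). Gpx3 was at 1.145 and 7.045 FPKM in the SePC-La samples, so its 2 samples covered nearly the full range of the 6. Selenoi, lower in PC-La than in Laser, was at 7.361 and 5.769 FPKM in SePC-La, with a difference of 0.34 (SE 0.17, adjusted p = 0.265 by limma) from PC-La. The 3 comparisons share samples with one another, so their values for a gene are not independent.

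**Figure D4:**
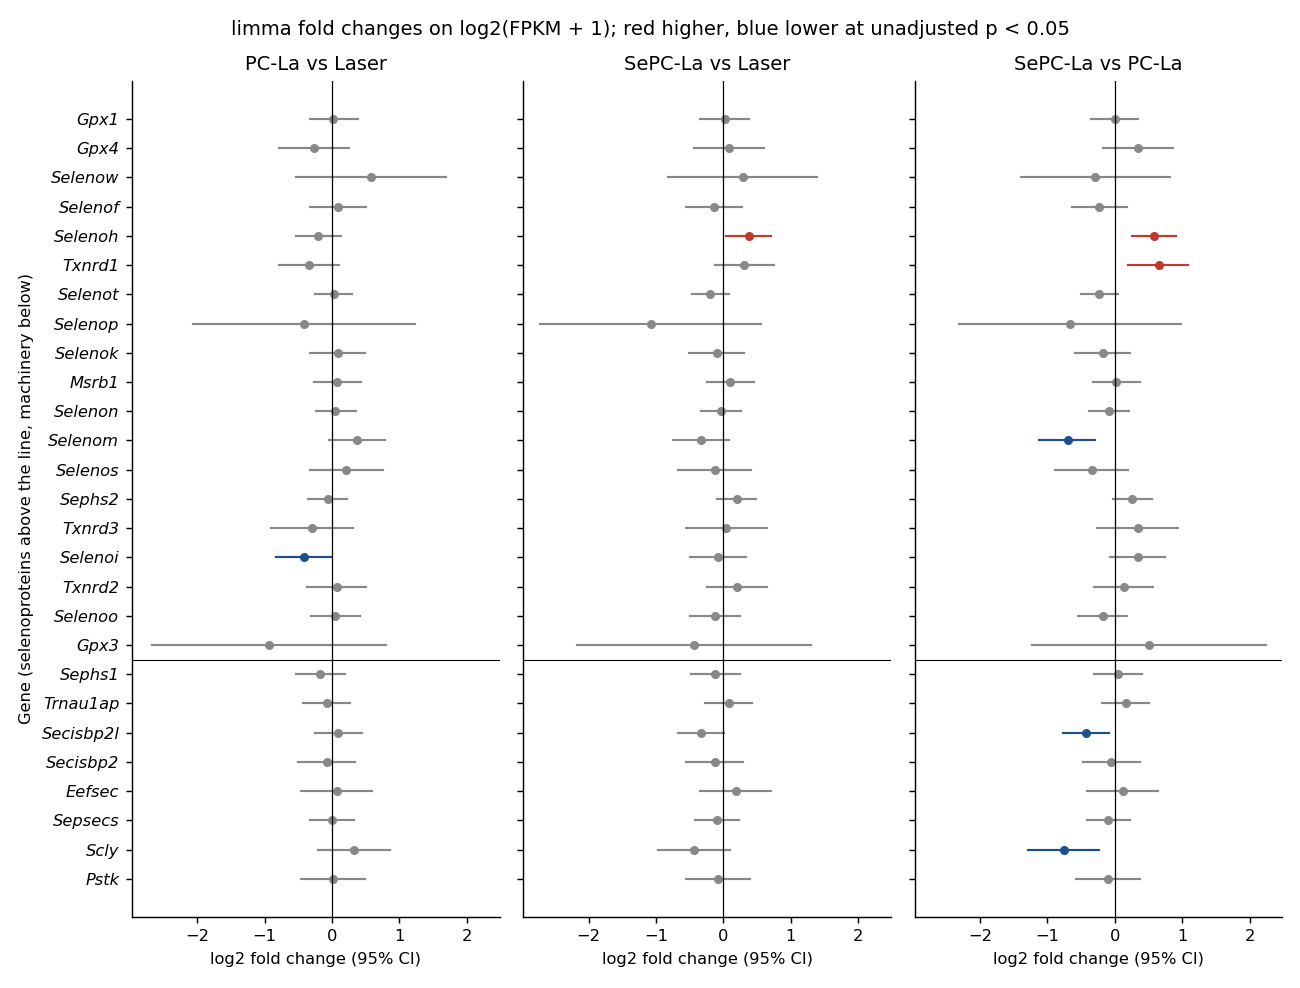
Points are limma log2 differences of the 27 tested members, with bars for 95% confidence intervals, in the 3 comparisons. Coloured points are those with an unadjusted p under 0.05 (red higher, blue lower), 1, 1 and 5 in number, and most intervals cross 0.

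Exons of several members overlap a gene on the other strand, and the sources used here do not say whether counting used strand. The overlap covered 58.8% of the exon length of Pstk (with Ikzf5), 36.4% of Sephs2 (with Gm44729), 26.7% of Selenoo (with Tubgcp6), 15.4% of Selenop (with Ccdc152), 11% of Eefsec and 3.5% of Scly. Reads of the partners cannot be told apart from those of the members there.

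Selenop, with Gpx3 and Selenow, was among the members whose samples lay far apart within a group. The Laser samples had 50.43 and 52.65 FPKM, the PC-La samples 44.65 and 33.03, and the SePC-La samples 11.28 and 49.36, so that SePC-La replicate 1 stood far below the other 5 samples. The log2 difference between SePC-La and Laser was -1.08 (SE 0.65, 95% CI -2.72 to 0.56), with an adjusted p of 0.525 by limma, and that between SePC-La and PC-La was -0.66 (SE 0.65, adjusted p = 0.545). Over the samples left out the first ranged from -2.10 to -0.06 and the second from -1.68 to 0.35. Both SePC-La samples were below both Laser samples, but the difference was within the spread between replicates.

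Markers of other cell types also moved between samples and groups. In bulk tumors fewer cells of a type and less RNA per cell cannot be told apart. The summed FPKM of 7 macrophage markers reached 640.8 and 686.0 for Laser, 881.3 and 936.0 for PC-La, and 372.3 and 708.1 for SePC-La. That of 6 fibroblast markers reached 1239 and 282.8 for Laser, 1714 and 1562 for PC-La, and 117.3 and 631.1 for SePC-La. SePC-La replicate 1 was thus lowest in both sums, as it was in Selenop, Selenom and Scly. PC-La was highest in both sums, as it was in Selenom and Scly. Abundant genes carried the sums, and not every marker followed them. The macrophage receptor Mrc1 was at 14.45 and 14.27 FPKM in PC-La against 26.7 and 29.69 in Laser, and the collagens Col1a1 and Col1a2 were highest in SePC-La replicate 2, at 23.17 and 10.08 FPKM. The part of these cells in the values of Selenop, Selenom and Scly was not tested.

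**Figure D5:**
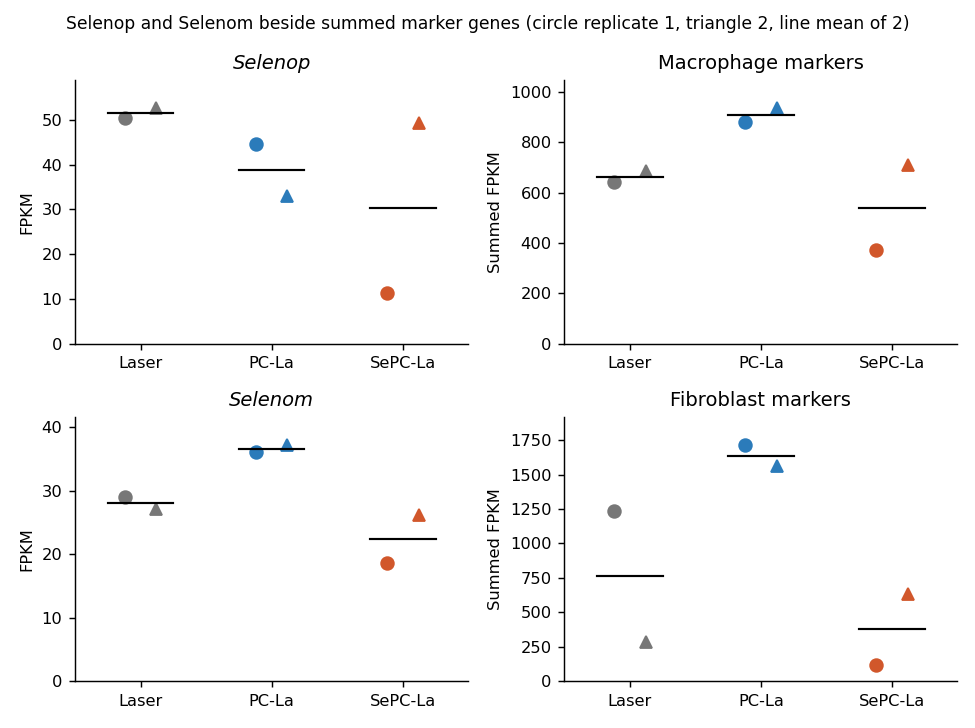
FPKM of Selenop and Selenom (left, y axis from 0) beside the summed FPKM of 7 macrophage and 6 fibroblast marker genes (right), with circles for replicate 1, triangles for replicate 2 and a line at the mean of 2. SePC-La replicate 1 is lowest in all 4 panels, at 11.28 and 18.65 FPKM for the genes and 372.3 and 117.3 for the sums.

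Sums of other markers differed between PC-La and SePC-La in the direction of Selenoh and Txnrd1. The summed FPKM of 6 neutrophil markers was 77.25 to 144.8 in PC-La and 330.8 to 434.6 in SePC-La, with 31.86 to 148.0 in Laser. For 6 erythroid markers the sums were 263.2 to 361.6 and 613.3 to 933.0, with 13.57 to 127.1 in Laser, and for 5 platelet markers 18.39 to 20.1 and 91.99 to 146.2, with 75.74 to 90.6 in Laser and Gp1bb listed at 0 throughout. The groups PC-La and SePC-La did not overlap in any of these 3 sums. Pf4 and Ppbp carried the platelet sum, and not every platelet marker followed it. Itga2b was at 1.279 and 0.9066 FPKM in PC-La against 0.5457 and 0.7561 in SePC-La, and Gp9 was at most 0.3216 FPKM in any sample. The 5 skeletal muscle markers summed to 19.03 and 124.1 FPKM in Laser against 1.478 to 5.897 in the other groups. The sums of 5 endothelial markers (15.57 to 28.02), 5 T cell markers (2.526 to 8.369), 5 adipocyte markers (1.565 to 20.1) and 6 epithelial and lung markers (188.3 to 276.2) had ranges that overlapped between all groups, except that both SePC-La sums of endothelial markers were above both Laser sums. Their part in the differences of Selenoh and Txnrd1 was not tested.

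Genes that work beside the members were counted in 3 lists. The first held genes of selenium uptake, of the serine charged on the selenocysteine tRNA and of its modification, and proteins that bind selenoprotein mRNAs. Of its 10 tested genes, 0 passed in either direction for PC-La against Laser at an unadjusted p under 0.05, 3 were higher and 2 lower in SePC-La than in Laser, and 3 were higher and 1 lower in SePC-La than in PC-La. The shares of all genes were 4.9% higher and 7.24% lower, and 9.91% higher and 14.4% lower, in the last 2 comparisons. Ncl, nucleolin, was at 128.4 and 138.5 FPKM in PC-La against 266.5 and 202.9 in SePC-La, a log2 difference of 0.80 (SE 0.16, adjusted p = 0.126 by limma). Eif4a3, an exon junction helicase known to bind the hairpins of selenoprotein mRNAs, had a difference of 0.42 (SE 0.12, adjusted p = 0.134), and Sars, the seryl-tRNA synthetase, one of 0.76 (SE 0.21, adjusted p = 0.134). Lrp1, a receptor of the family that takes up selenoprotein P, was lower by -0.60 (SE 0.16, adjusted p = 0.134).

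Against Laser, the same 4 genes had limma log2 differences in SePC-La of 0.50 for Ncl (adjusted p = 0.382), 0.36 for Eif4a3 (0.376), 0.59 for Sars (0.385) and -0.53 for Lrp1 (0.376). Alkbh8, which modifies the selenocysteine tRNA, was the fifth gene, at -0.34 (SE 0.14, adjusted p = 0.407).

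The second list held cysteine homologues of selenoproteins and their partners in the glutathione and thioredoxin systems. Of its 12 tested genes, 0 had a higher and 3 a lower level in PC-La than in Laser, 2 were higher and 0 lower in SePC-La than in Laser, and 5 were higher and 0 lower in SePC-La than in PC-La at an unadjusted p under 0.05. Beside these stand 2.4% of all genes lower in the first, 4.9% higher in the second and 9.91% higher in the third comparison. Gclm, the regulatory subunit of the enzyme that starts glutathione synthesis, had 9.395 and 13.17 FPKM under Laser, 6.794 and 7.053 under PC-La, and 14.46 and 15.28 under SePC-La. PC-La was below and SePC-La above the other groups in both samples. Its log2 difference was -0.62 (SE 0.17, adjusted p = 0.705 by limma) for PC-La against Laser and 1.00 (SE 0.17, adjusted p = 0.123) for SePC-La against PC-La. Gclc, the catalytic subunit, had differences of -0.59 (SE 0.18) and 0.77 (SE 0.18, adjusted p = 0.126), and Gsr, glutathione reductase, of -0.52 (SE 0.18) and 0.64 (SE 0.18, adjusted p = 0.139). Glrx, glutaredoxin, was higher in SePC-La than in PC-La by 0.57 (SE 0.16, adjusted p = 0.134) and than in Laser by 0.47 (SE 0.16, adjusted p = 0.382), and mitochondrial thioredoxin Txn2 by 0.36 (SE 0.12, adjusted p = 0.152) and 0.35 (SE 0.12, adjusted p = 0.382). For PC-La against Laser the adjusted p of Gclc and Gsr was 0.753.

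The third list held genes of small-molecule selenium metabolism, of which 3 were tested. None was called in PC-La against Laser, 1 was higher in SePC-La than in Laser, 2 were higher in SePC-La than in PC-La, and 0 were lower in any comparison, beside 4.9% and 9.91% of all genes higher in the last 2 comparisons. Cth, which splits cystathionine and can also release selenium from selenium-containing amino acids, had 2.165 and 1.989 FPKM under Laser, 1.261 and 2.322 under PC-La, and 7.688 and 4.187 under SePC-La. Its log2 difference was 1.13 (SE 0.29, adjusted p = 0.376 by limma) from Laser and 1.29 (SE 0.29, adjusted p = 0.126) from PC-La. Selenbp1, a methanethiol oxidase that binds selenium without selenocysteine, was higher in SePC-La than in PC-La by 0.78 (SE 0.27, adjusted p = 0.168). Inmt, a methyltransferase that can methylate selenium compounds, was the third gene, named although it was not called. It had 11.25 and 0.0354 FPKM under Laser, 19.48 and 8.52 under PC-La, and 0 and 2.649 under SePC-La, and its limma log2 difference between SePC-La and PC-La was -2.87 (SE 1.36, adjusted p = 0.262).

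Promoters were searched for the core of the antioxidant response element, TGACNNNGC, where N is any base, on both strands, since TXNRD1 and the glutathione genes are known targets of NRF2, the factor that binds this element. Windows ran from 250 bases before to 50 after each start in RefSeq's GRCm38.p6 annotation, which gave 39 promoters for 31 of the 32 members. The letters were found in 2 of the 39 (5.13%), beside 12.4% of 32851 promoters of all genes. They are shown in capitals with 10 bases on either side, for Txnrd1 on the reverse strand in the window chr10:82858956-82859255, starting 92 bases before the start, and for Selenok on the forward strand in the window chr14:29968130-29968429, starting 44 bases before the start.
Txnrd1: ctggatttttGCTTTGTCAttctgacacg
Selenok: gttacttgtgTGACTGGGCggaacctcta
The match describes the letters only. Both windows lie around a start inside the gene, whose first annotated base is chr10:82833951 for Txnrd1 and chr14:29968308 for Selenok. Txnrd1 was higher in SePC-La than in PC-La at an unadjusted p under 0.05, as given above, and Selenok was not called in any comparison.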

How the data were processed

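RNA of 6 mouse tumor samples was sequenced, 2 in each of 3 groups, which were taken from the treatment in the sample labels. The authors deposited a table of FPKM values with a column per sample, used as deposited. Neither the labels nor the methods name its unit, which was settled from the values: multiplied by merged exon lengths of GENCODE M21 (GRCm38), they gave whole reads (within 0.05 reads) in all 6 samples for 97.9% of 16768 expressed genes. The submitters' processing notes name HISAT2 2.0.5, HTSeq 0.9.1, DESeq 1.30.0 and the build mm9, so no coordinate of the authors was used. Their annotation and the strand setting of counting are not given in the sources used here. Libraries were made with the NEBNext Ultra II kit.

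The fits used limma (version 3.58.1, R version 4.3.3) and log2(FPKM + 1) of every gene whose mean reached 1 FPKM, with group means and moderation by trend and robust estimation (6.4 degrees of freedom, 3.4 from the prior), and p-values were adjusted over all genes tested by Benjamini and Hochberg. The design followed the study's screen of genes without covariates, but limma took the place of its count test because FPKM values are not counts. List medians carry no test. The scripts were tested on simulated data.

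All 32 members are named. From the 3 companion lists (uptake and tRNA, cysteine homologues and partners, small-molecule selenium metabolism), up to 4 genes with the smallest p under 0.05 per comparison are named. Inmt, Txn2 against PC-La and Alkbh8 against Laser fall outside this rule, as do markers named singly, and were chosen after their values were seen. The members, the companion lists and the 10 lists of cell type markers were chosen with earlier results of these data known. Codons, lengths and coordinates came from GENCODE M21, and promoters from RefSeq (GRCm38.p6), both read with Python 3.11.15, pandas 2.3.3, NumPy 2.4.6 and Biopython 1.88, and plots were drawn with matplotlib 3.10.9. Each result was recomputed with a pseudocount of 0.1, without the filter, with the filter raised to 5 FPKM, after quantile normalization or median-ratio scaling, without robust estimation or without the trend, in fits of the 4 samples of a comparison, with the replicate number as a block, by voom from the recovered reads, and leaving out each sample in turn. Some results on overlapping exons are not reported here.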

Additional observations from a re-analysis of the deposited data

How the results depend on the processing

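The alternatives reversed none of the calls, and most changed the counts of members with an unadjusted p under 0.05, which are small. For PC-La against Laser the count was 1 and became 0 with no filter, 0 with median-ratio scaling and 2 with only the 4 samples compared, and 0 to 6 when a sample was left out. For SePC-La against Laser it was 1 and became 2 by voom from the recovered reads, 0 with quantile normalization and 0 in a fit of the 4 samples alone, and 0 to 5 when a sample was left out. For SePC-La against PC-La it was 5 and became 8 with quantile normalization, and 2 to 8 when a sample was left out, 8 of them without SePC-La replicate 2. The sample left alone in its group was assumed to vary like the others.

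With the replicate block the 3 counts were 0, 0 and 5, beside 4.16%, 8.64% and 18.7% of all genes. Samples of the same number did not deviate together (correlations of 0.086, -0.428 and -0.177 between groups), so the numbers were not taken as pairs. With the numbers crossed, an alternative chosen after seeing the data, the counts were 2, 3 and 7. These stood beside 10.3%, 14.5% and 29.1% of all genes.

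The median of the machinery for SePC-La against Laser was -0.01 with quantile normalization, and that for SePC-La against PC-La was 0.05 at a minimum mean of 5 FPKM and 0.08 with quantile normalization, so that this last median changed sign. With 1 sample left out the selenoprotein median ranged from -0.12 to 0.12 for SePC-La against Laser and from -0.15 to 0.15 for SePC-La against PC-La. All medians for PC-La against Laser stayed within the spread between replicates.

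Over all genes, an adjusted p under 0.05 was found for 0 genes in each comparison with voom. For SePC-La against PC-La it was found for 637 genes in a fit of the 4 samples alone. With quantile normalization it was found for 8 genes in this comparison, with median-ratio scaling for 6 and at a minimum mean of 5 FPKM for 3. Some fits with a sample left out, which rest on 1 sample in a group, also gave such genes in each comparison. Selenoh, in SePC-La against PC-La, was the only member among all of these genes. The precision is limited by 2 samples a group, and the widest standard errors were those of Gpx3 (0.69), Selenop (0.65) and Selenow (0.44).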
